A study of Homo sapiens with 2 samples.

Results

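Long intergenic noncoding genes (symbols beginning with LINC) and named antisense genes (symbols with -AS and a digit) were followed through a map of CREB binding in the human neuroblastoma line NGP, an established cell line. The members were all such symbols in the authors' table of peaks paired with transcription start sites (TSS) within 50 kb, 215 of its 2495 symbols: 117 LINC and 98 antisense genes. Each member was given its nearest peak, by the distance from the peak's summit to its TSS. RefSeq classed 214 of the 215 as lncRNA genes and LINC01869 as a transcribed pseudogene, and LINC01297 and LINC01297-DUXAP10-NBEAP6 share 1 TSS. The members were thus chosen by the measured peak positions, and distances and fold enrichments are given below as descriptions without tests. Chromatin immunoprecipitation and sequencing (ChIP-seq) was done with a CREB antibody on cells for which the labels name no treatment, kept in 20% serum until they covered 80 to 90% of the dish. The series held 1 ChIP library and 1 input library (DNA that was not immunoprecipitated), without replicates, so no value has an error between cultures.

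CREB is a transcription factor that cAMP and calcium signals activate by phosphorylation. It binds the cAMP response element (CRE), a palindrome whose full form is TGACGTCA and whose half-sites are TGACG and, on the other strand, CGTCA. Antisense lncRNA genes are transcribed from the strand opposite a coding gene, and many start back to back with a coding gene from 1 shared, bidirectional promoter, where a bound factor cannot be assigned to either gene by position. LINC genes lie apart from coding genes, and most have no known function.

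The sequences below are 6 examples of starts where a full CRE or a half-site and a CREB summit lay near each other. RefSeq promoter windows of GRCh38.p14 (300 bases, 250 before the start and 50 from it on) were available for 166 of the 215 members and for 17 of the 20 members with a summit within 1 kb of the TSS (9.30% of members, against 14.8% of all symbols of the table). The full CRE and the half-sites were searched on both strands, and every full CRE also counts as a half-site. Capitals mark these matches, and positions are counted from the gene's start on its own strand. Shown first are the windows of 4 members whose summit lay within the window together with a full CRE: LINC00265 (chr7:39733318-39733617, plus strand), LINC02606 (chr1:9428947-9429246, minus strand), EMC3-AS1 (chr3:9986833-9986942, plus strand, from 60 bases before the start, since the gene starts inside EMC3) and ZNF561-AS1 (chr19:9621233-9621531, plus strand).
LINC00265: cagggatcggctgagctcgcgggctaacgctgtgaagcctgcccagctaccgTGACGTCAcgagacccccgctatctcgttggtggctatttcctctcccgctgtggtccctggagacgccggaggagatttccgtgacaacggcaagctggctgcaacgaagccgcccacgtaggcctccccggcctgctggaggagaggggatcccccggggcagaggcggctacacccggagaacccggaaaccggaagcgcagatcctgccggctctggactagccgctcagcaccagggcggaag
LINC02606: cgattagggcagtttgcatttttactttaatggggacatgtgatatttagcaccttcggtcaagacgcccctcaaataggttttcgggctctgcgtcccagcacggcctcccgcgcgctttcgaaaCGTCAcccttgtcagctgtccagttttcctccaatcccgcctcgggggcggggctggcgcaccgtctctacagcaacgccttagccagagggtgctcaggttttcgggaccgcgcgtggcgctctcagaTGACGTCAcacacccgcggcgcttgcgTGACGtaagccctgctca
EMC3-AS1: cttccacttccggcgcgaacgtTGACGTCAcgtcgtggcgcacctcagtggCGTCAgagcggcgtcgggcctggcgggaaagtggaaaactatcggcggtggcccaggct
ZNF561-AS1: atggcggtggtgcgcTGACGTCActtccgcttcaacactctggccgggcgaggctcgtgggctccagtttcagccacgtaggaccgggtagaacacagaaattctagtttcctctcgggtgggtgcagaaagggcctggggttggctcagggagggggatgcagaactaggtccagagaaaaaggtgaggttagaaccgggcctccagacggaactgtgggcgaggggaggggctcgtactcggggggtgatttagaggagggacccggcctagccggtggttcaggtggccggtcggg
Shown next are 2 antisense genes that start back to back with a coding gene and hold a half-site alone, cut where the neighbouring gene begins, so that the summit of CCDC28A-AS1, inside CCDC28A, lies outside the stretch printed: CCDC28A-AS1 (chr6:138773654-138773768, minus strand), beside CCDC28A, and NAPA-AS1 (chr19:47484220-47484331, plus strand), beside KPTN.
CCDC28A-AS1: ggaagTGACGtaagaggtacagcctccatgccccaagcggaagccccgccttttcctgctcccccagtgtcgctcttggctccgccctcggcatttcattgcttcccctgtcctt
NAPA-AS1: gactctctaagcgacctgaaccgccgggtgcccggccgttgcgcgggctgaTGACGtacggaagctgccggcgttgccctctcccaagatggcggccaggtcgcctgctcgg

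The windows printed are examples chosen for a CRE near a summit, so that closeness is not a result, and the distances are given as a description. In LINC02606 the full CRE began 5 bases after the start, with its centre 11.5 bp from the summit, and in LINC00265 it began 198 bases before the start, 22.5 bp from the summit. In EMC3-AS1 it began 38 bases before the start and in ZNF561-AS1 234 bases before, each with its centre 55.5 bp from the summit. LINC02606 held 2 further half-sites and EMC3-AS1 held 1. The half-sites of NAPA-AS1 and CCDC28A-AS1 lay 47 and 86 bp from the summit. At ZNRD2-AS1, which RefSeq lists as ZNRD2-DT, the window also held a full CRE, 178.5 bp from the summit, beginning at the base where the neighbouring ZNRD2 starts. RNF213-AS1 and SNAI3-AS1 held half-sites alone, the nearest 170 and 52 bp from their summits.

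**Figure D1:**
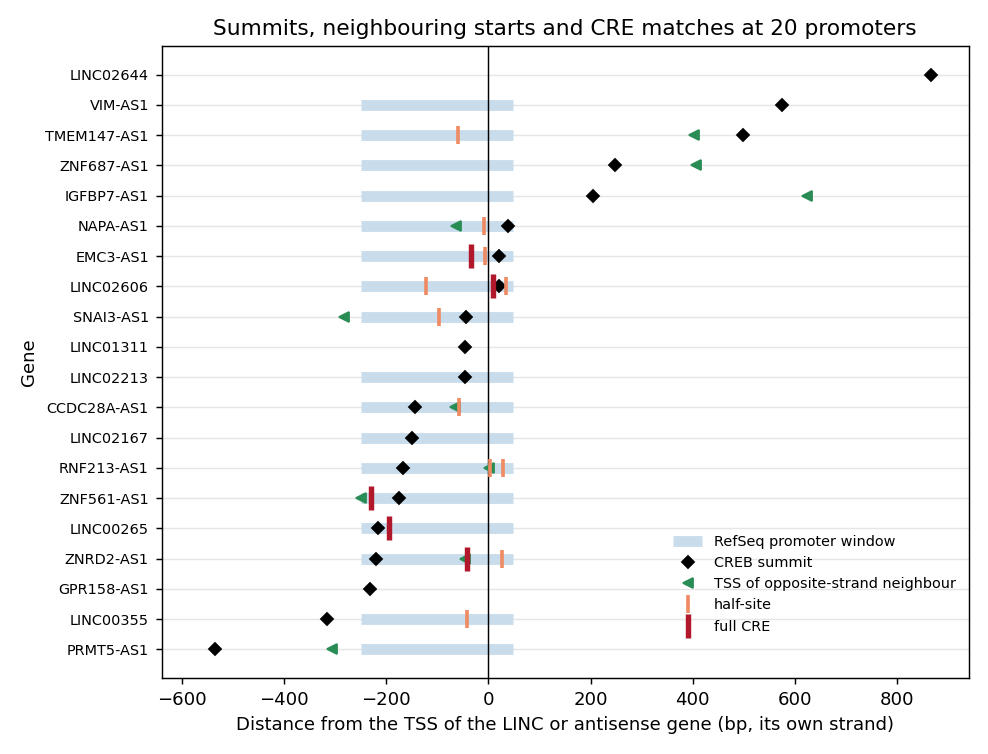
Positions at the 20 members with a summit within 1 kb, in bp from each member's TSS on its own strand. Blue bars are the RefSeq windows, diamonds the summits, red marks full CREs, orange marks half-sites, and green triangles the starts of opposite-strand neighbours. The full CREs of LINC02606 and LINC00265 lie beside the summit, and neighbouring starts lie within 623 bp on either side.

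Among members, windows that contained their own summit held the CRE more often than windows that did not. As background, 1.85% of all 35116 RefSeq promoter windows of this length held the full CRE and 24.6% a half-site. Of the 11 promoter members whose summit fell inside their window, 5 held the full CRE (45.5%, exact Clopper-Pearson 95% interval 16.7 to 76.6) and 9 held a half-site (81.8%, 48.2 to 97.7). Of the 6 promoter members whose summit fell outside it, 0 held the full CRE (upper bound 45.9%) and 2 held a half-site, LINC00355 and TMEM147-AS1. Of 149 members with the nearest summit beyond 1 kb, 3 held the full CRE (2.01%) and 27 a half-site (18.1%). These shares describe windows, were not tested, and do not show which match CREB occupies. LINC02213 and LINC02167, with summits 45 and 150 bp before their starts, held neither form, and both peaks were weak, with 5 and 4 fragments.

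The same was seen over all genes. Of 190 windows of any gene that held a summit, 72 contained the full CRE (37.9%) and 167 a half-site (87.9%), against 1.65% and 24.2% of the 34926 windows without a summit. For LINC and -AS symbols of RefSeq, including those not in the authors' table, 7 of 16 windows with a summit held the full CRE and 12 a half-site, against 1.36% and 19.2% of 3461 windows without one. Some genes have several overlapping windows, so windows are not independent counts. By peak, 57 of 138 peaks with a summit in a window lay with a full CRE (41.3%) and 123 with a half-site (89.1%). The members' intervals given above contain the shares over all windows with a summit.

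**Figure D2:**
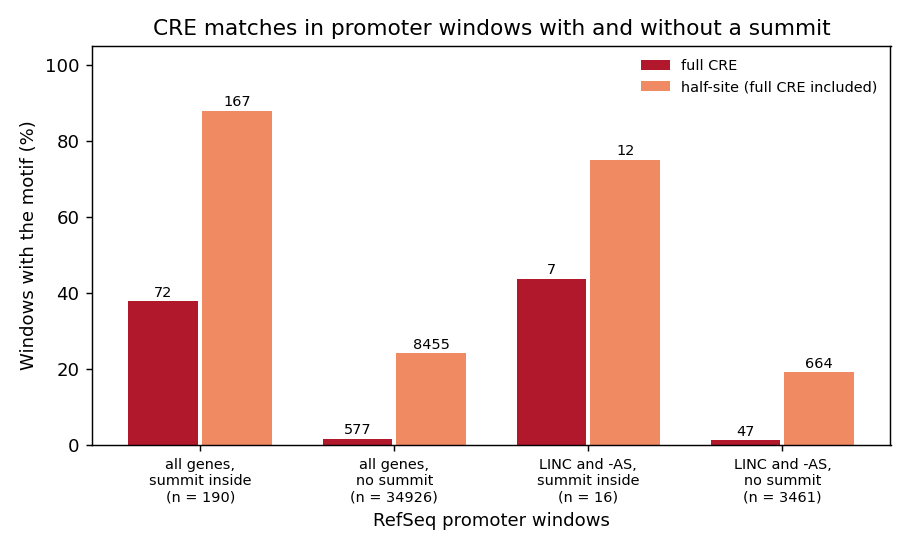
Share of RefSeq promoter windows with the full CRE (red) and with a half-site (orange, full CREs included), in percent, for windows with and without a CREB summit. Numbers on the bars count windows. The full CRE is in 37.9% of all windows with a summit and in 1.65% of those without.

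Promoter peaks of members mostly rested on few fragments, and by fold they were no weaker than those of all symbols. The number of fragments at a summit was recovered from the deposited fold and p-value, and it is given with an exact Poisson 95% interval that covers counting error only. The 20 promoter peaks, all different, held 4 to 19 fragments (median 7) with folds from 4.01 to 14.4 (median 6.23), and 10 of the 20 reached a −log10 q of 5. Over all 370 symbols of the table with a promoter peak the median fold was 5.62, and 163 (44.1%) reached that q. The strongest promoter peak by fragments was that of LINC00265, which held 19 fragments (95% interval 11.4 to 29.7) at a fold of 12.3, over an expected background of 0.632. EMC3-AS1 had a fold of 12.1 and LINC02606 a fold of 11.8, each with 15 fragments (8.40 to 24.7). EMC3 encodes a subunit of the complex that inserts membrane proteins into the endoplasmic reticulum, and the TSS the authors' table gives for it lay 24.3 kb from this summit. LINC02606 was the only symbol paired with its peak, and a weaker peak with a fold of 4.39 lay 538 bp from the same TSS. The interval of LINC00265 does not overlap that of LINC02167 or GPR158-AS1, which had 4 fragments each (1.09 to 10.2). The intervals of the other promoter members overlap their neighbours in the order, so that order is not resolved at this depth.

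The fold of promoter peaks with and without a CRE was compared as a description. Members with the summit in the window and a full CRE had a median fold of 11.8 (5 members, 4.56 to 12.3), those with half-sites alone 7.09 (4 members, 5.50 to 8.83), and the 2 with neither 4.01 and 4.81. Over all 138 such peaks of the list the medians lay closer together, at 6.13 with a full CRE (57 peaks), 5.89 with half-sites alone (66) and 5.62 with neither (15). The step seen among the members was thus not seen at that size over the whole list.

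**Figure D3:**
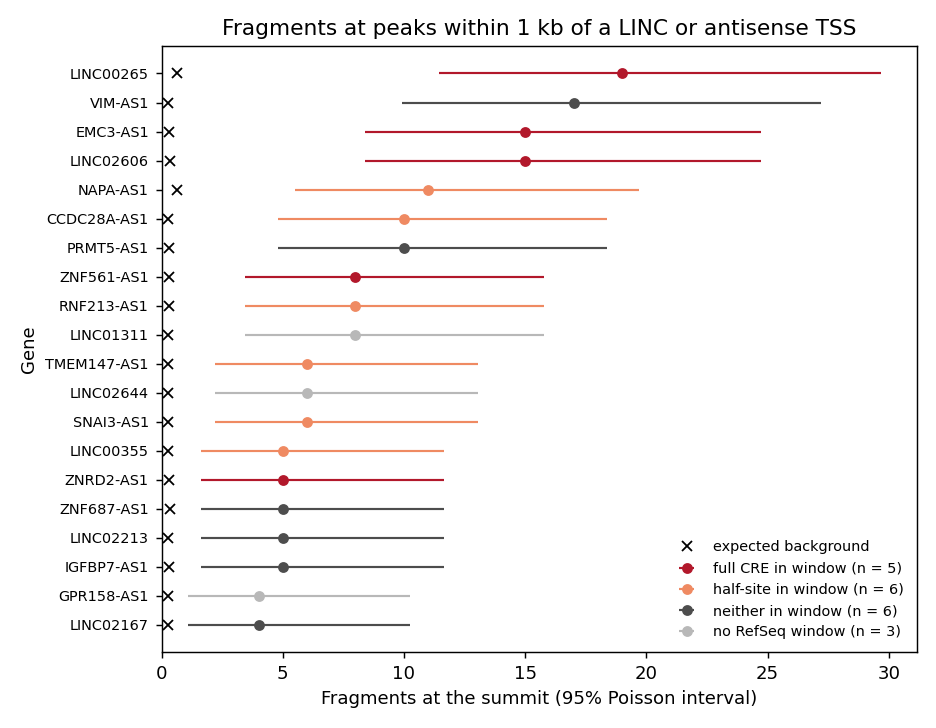
Fragments at the summit (points, with exact Poisson 95% intervals) and the expected background (crosses) for the 20 members with a summit within 1 kb, coloured by the CRE form in the RefSeq window. LINC00265, VIM-AS1, EMC3-AS1 and LINC02606 hold 15 to 19 fragments, and all others 11 or fewer.

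Antisense genes sharing a promoter peak with their sense gene were then collected. In 6 pairs the same summit lay within 1 kb of both starts, and these made up 6 of the 13 antisense genes with a promoter peak. All 6 pairs had opposite strands, as the antisense naming implies. In 3 of them the starts pointed away from each other with a gap between them, as in a bidirectional promoter, and in the other 3 the antisense gene started inside the sense gene and the first parts of the transcripts overlapped. The summit lay nearer to the sense start in 5 of the 6, IGFBP7-AS1 being the exception. The peaks held 5 to 10 fragments, with a median fold of 5.09.

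The strongest of these pairs was CCDC28A-AS1 with CCDC28A, a gene for a coiled-coil protein, on chr6:138773546-138773968. Its peak rested on 10 fragments (95% interval 4.80 to 18.4), at a fold of 8.83. The starts were 66 bp apart, and the summit lay 78 bp downstream of the CCDC28A start and 144 bp upstream of the antisense start. ZNF561-AS1 and ZNF561, a zinc-finger gene, started 250 bp apart around a peak at chr19:9621153-9621485, whose fold was 6.84 on 8 fragments (3.45 to 15.8). Its summit lay 75 bp upstream of ZNF561 and 175 bp upstream of the antisense gene, so of the 3 pairs with a gap this was the one with its summit inside it. The full CRE printed above lies at the ZNF561 end of that interval. ZNRD2-AS1 and ZNRD2, a gene for a zinc-ribbon protein, started 46 bp apart, with a fold of 4.56 and 5 fragments (1.62 to 11.7), the summit 175 bp inside ZNRD2.

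The 3 overlapping pairs had few fragments as well. At TMEM147, which encodes a membrane protein of the endoplasmic reticulum, the antisense gene started 403 bp inside the sense gene, and the summit lay 96 bp upstream of TMEM147 and 499 bp downstream of the TMEM147-AS1 start. The fold was 5.62, with 6 fragments (2.20 to 13.1), and the TMEM147 window around the summit held a full CRE. At IGFBP7, which encodes a secreted protein that binds insulin-like growth factors, the overlapping starts were 623 bp apart and the fold was 4.56. At ZNF687, another zinc-finger gene, they were 407 bp apart and the fold was 4.44. The IGFBP7 and ZNF687 peaks held 5 fragments each (1.62 to 11.7), and neither antisense window contained its summit or a CRE half-site.

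Other promoter members shared their peak with a coding gene that is not their namesake. NAPA-AS1 started 63 bp from KPTN, whose product belongs to a complex that regulates mTORC1 nutrient signalling, at a fold of 7.35 with 11 fragments (5.49 to 19.7), while NAPA itself started 30.7 kb from the summit. SNAI3-AS1 started 282 bp from MVD, an enzyme gene of the mevalonate pathway of sterol synthesis, at a fold of 5.50. PRMT5-AS1 started 307 bp from RBM23, an RNA-binding protein gene, at a fold of 8.39, and its summit lay nearer to RBM23. RNF213-AS1 and ENDOV, an inosine-specific endonuclease gene, had overlapping starts on opposite strands, 1 bp apart, at a fold of 6.84. Together with the 6 sense pairs, 10 of the 20 promoter members (exact 95% interval 27.2 to 72.8%) had another symbol's start within 1 kb of the summit. The share over all symbols with a promoter peak was 48.9%, which lies within that interval.

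VIM-AS1 and GPR158-AS1 had their own start nearer to the summit than the sense start and fell just outside the definition. The VIM-AS1 peak, at chr10:17229299-17229636, had the highest fold of the promoter members, 14.4, with 17 fragments (9.90 to 27.2). It lay 574 bp downstream of the VIM-AS1 start and 1170 bp downstream of that of VIM, the gene of the intermediate filament protein vimentin. The VIM-AS1 window held no CRE half-site and did not contain the summit. GPR158 encodes a receptor of neurons, and its peak lay 232 bp upstream of the antisense start and 1507 bp inside GPR158, with 4 fragments. GLYCTK-AS1 was the reverse case, with the summit 133 bp from the start of GLYCTK, a glycerate kinase gene, and 1780 bp from its own.

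The remaining promoter members were LINC genes with no other symbol's start within 1 kb of the summit. The LINC01311 summit, 45 bp upstream of the start, had 8 fragments (3.45 to 15.8) and a fold of 7.22, and a further peak with a fold of 5.62 lay 1051 bp from the start. LINC00355 (fold 4.82, 317 bp) and LINC02644 (fold 5.62, 866 bp) had 5 and 6 fragments. With LINC02606, LINC00265, LINC02213 and LINC02167 these made 7 LINC genes, which is 5.98% of the 117 (exact 95% interval 2.44 to 11.9), while 13 of the 98 antisense genes had a promoter peak (13.3%, 7.26 to 21.6). The intervals overlap. Over all members the count was 20 of 215 (9.30%, 5.78 to 14.0), against 14.8% of all symbols in the table, in which coding genes stood at 15.7%.

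Promoter peaks at such genes were scarce among those annotated, as they were at other lncRNA genes. RefSeq gave start positions for 3107 LINC and -AS genes, of which 21 (0.676%, exact 95% interval 0.419 to 1.03) had a summit within 1 kb of any start and 240 (7.72%) within 50 kb. For 1524 -AS genes the share within 1 kb was 0.984% (0.552 to 1.62) and for 1583 LINC genes 0.379% (0.139 to 0.823). It was 1.48% (1.30 to 1.68) for 15843 coding genes and 1.1% for all 27305 genes with a start. For 8361 other lncRNA genes it was 0.514% (0.372 to 0.692), with 7.02% within 50 kb. That 1 kb interval overlaps the one of the LINC and -AS genes together, so the low share is not particular to them. The interval of the LINC genes lies below that of the coding genes, and that of the -AS genes overlaps it, but the difference was not tested. Genes that share a peak were each counted, so genes are not independent. Any start of a gene counted, and LINC and -AS genes had fewer windows per gene (3477 for 3107 genes) than all genes (35116 for 27305). The authors' table left out 76 of the 240, and 5 of these had a summit within 1 kb: PEF1-AS1 (fold 12.0), PCGF3-AS1 (8.83), LINC01409 (7.22), FBXO34-AS1 (4.66) and NUP153-AS1 (3.76). They are not counted among the members.

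Most members lay far from their peak, as did most symbols of the table. The median distance was 20320 bp. The summit lay between 1 and 5 kb for 18 members (8.37%, against 8.50% of all symbols). For 22 it lay between 5 and 10 kb (10.2%, against 9.26%). It lay between 10 and 25 kb for 61 (28.4%, against 27.1%) and between 25 and 50 kb for 94 (43.7%, against 40.0%). The median over all symbols was 19645 bp, and the summit lay upstream of the TSS for 116 of the 215 members (54.0%) and for 51.5% of all symbols. The 215 members used 196 different peaks, and for 103 members (47.9%, exact 95% interval 41.1 to 54.8) no other symbol of the table was nearer to the peak, against 41.3% of all symbols. At the edge of the table, LINC01356, LINC01230 and BZW1-AS1 lay 49.1 to 49.6 kb from their summits with folds of 4.56, 8.83 and 4.56. By RefSeq starts the first genes beyond it were LINC02739, LINC01875 and ANO3-AS1, at 50.1 to 50.2 kb with folds of 5.62, 12.8 and 4.01.

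**Figure D4:**
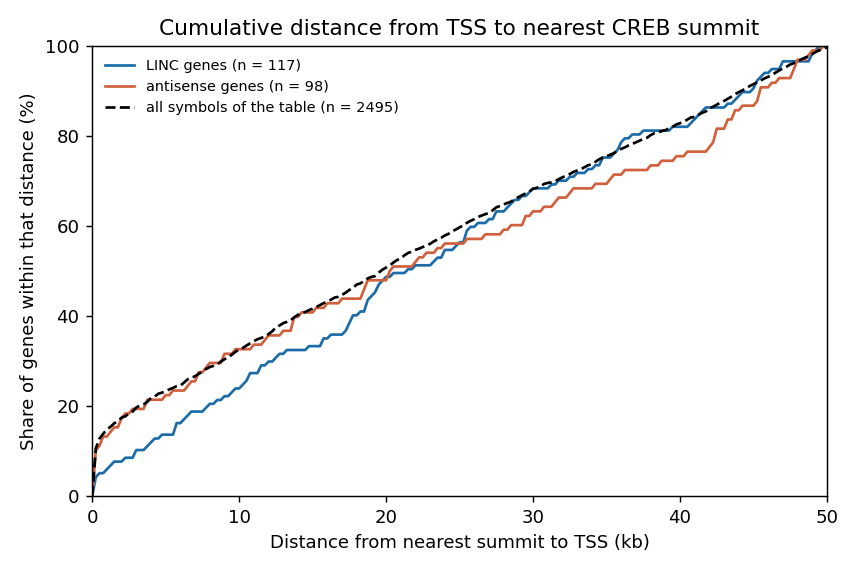
Cumulative share of genes (percent) by distance from TSS to nearest summit (kb), for LINC genes (blue), antisense genes (orange) and all symbols of the authors' table (dashed). Within 1 kb the curves stand at 5.98%, 13.3% and 14.8%, and all rise nearly evenly beyond it.

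Folds of the nearest peaks were like those of the table at large. The median fold of members was 4.82 (quartiles 4.01 to 6.42) and that of all symbols 4.82 (4.01 to 6.41). Of the members, 118 (54.9%) rested on at most 5 fragments, against 48.8% of all symbols, over a median expected background of 0.277 fragments. A fold of 10 or more was reached at 17 members (7.91%, exact 95% interval 4.67 to 12.4), against 7.01% of all symbols.

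The 10 highest folds beyond 1 kb, taking 1 member per peak, ran from 11.3 to 50.3. LINC02564 reached a fold of 50.3 on 97 fragments (78.7 to 118). The summit lay 1010 bp upstream of a TSS at position 11207 of chromosome 10, next to the chromosome's end. USP2-AS1 had a fold of 30.4 with 39 fragments, but its summit lay 46.2 kb away. LINC01018 had a fold of 20.1 with 24 fragments (15.4 to 35.7) at 10.7 kb and was the only symbol on its peak. LINC00472 and LINC01626, which start from opposite strands close together, shared a peak with a fold of 15.3 about 17 kb from both, at the start of MIR30A, a microRNA gene. LINC01054 (fold 13.7, 20.3 kb) and ARAP1-AS2 (12.8, 22.1 kb) were nearest to their own peaks. AGAP2-AS1 (13.1, 18.7 kb) was paired with the promoter peak of TSPAN31, over a high expected background of 2.37 fragments, and LINC01874 (12.8, 2957 bp) with a peak at an uncharacterised LOC gene. PRRT3-AS1 (12.1, 39.5 kb) was paired with the EMC3-AS1 peak. LINC00960 (11.3, 2992 bp) held 39 fragments over a background of 2.53.

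**Figure D5:**
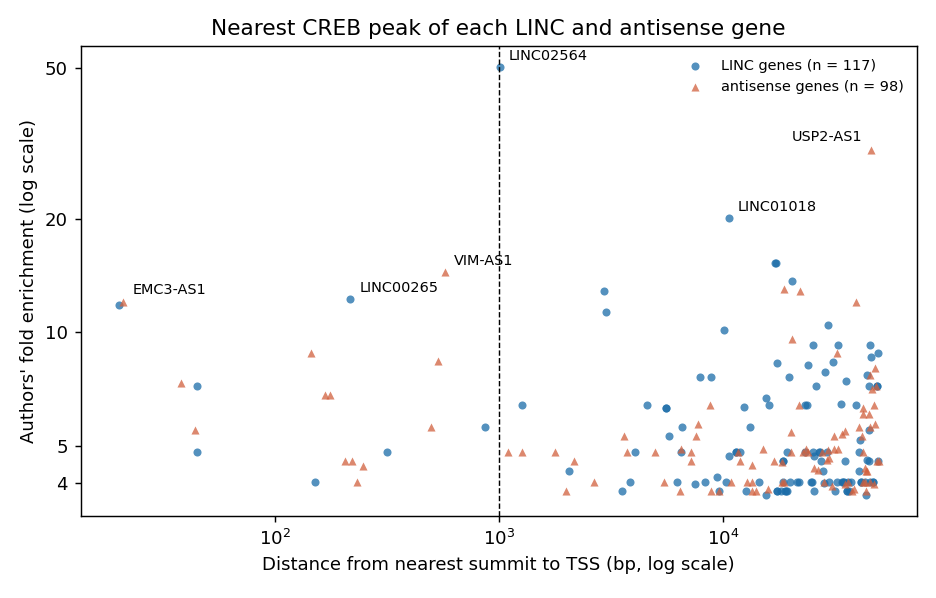
Authors' fold enrichment of the nearest peak against its distance from the TSS (bp), both on log scales, for 117 LINC genes (circles) and 98 antisense genes (triangles). The dashed line marks 1 kb. Most points lie at 10 to 50 kb with folds near 4 to 5, and folds of 10 or more occur on both sides of the line.

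Promoter peak here means a summit within 1 kb of any symbol's start, that of the microRNA gene MIR30A included. Of the 195 members beyond 1 kb, 36 (18.5%) had as nearest peak the promoter peak of a gene outside the members, at 32 peaks. The share over all symbols beyond 1 kb was 23.2%. For 4 of the 36 members the gene at that promoter was the sense gene by symbol. Sense genes were matched only by the symbol before -AS, so a sense gene listed under a newer symbol was not counted. LINC01220 was paired with the promoter peak of FOS, an immediate-early gene and a classic CREB target, 15.7 kb away with a fold of 6.69. NUCB1-AS1 was paired with that of PPP1R15A, a gene of the integrated stress response, at 46.6 kb with a fold of 7.08. These pairings rest on distance alone. Over all 98 antisense genes, 70 (71.4%) had the sense gene, matched in this way, paired with the same peak. It was on the opposite strand in all 70, as the antisense naming implies. In 32 of the 70 the sense and antisense starts lay within 1 kb of each other, and no share for other neighbouring genes was computed. The summit was nearer to the sense start in 37 of the 70 (52.9%).

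Stretches crowded with peaks were counted by gene and by pair. By gene, 8 members (3.72%) had all their peaks in windows of 1 Mb with 10 or more peaks, against 4.53% of all symbols. By pair, in which a symbol counts once for each of its peaks, such windows gave 37 of the members' 260 pairs (14.2%) and 44.9% of all pairs in the table. LINC01535 and LINC00665, both on chromosome 19, made up most of these pairs, with 17 and 13 peaks. The 17 peaks of LINC01535 spanned chr19:37270364-37300082, all downstream of its start at 18.5 to 48.2 kb, with folds of 4.01 to 6.42. The 13 peaks of LINC00665, an lncRNA gene studied in cancer, spanned chr19:36282785-36308171, all downstream at 23.8 to 48.5 kb, with folds of 3.80 to 8.48. No peak of either lay at the start. Of the other members, 196 had 1 peak and 17 had 2.

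Genes of 3 lists were looked up by symbol. One list held 28 lncRNA names collected for neuroblastoma or the neural crest, among them HAND2-AS1, GATA3-AS1 and FOXD3-AS1, and not all of them are established genes. Of these 28 names, and of 31 possible antisense partners of CREB-responsive genes, 0 were in the table. Of these names 27 and 31 have the form of the members, and RefSeq holds 25 and 5, the second list having been formed by adding -AS1 to gene symbols. With 7.72% of all RefSeq LINC and -AS genes within 50 kb of a summit, lists this short cannot tell 0 from that share. Of 41 lncRNA genes widely studied in cancer, 36 of them with the members' form, LINC00665 and FEZF1-AS1 were in it, the latter with a summit 15.2 kb upstream of its start, and 0 had a promoter peak.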

How the data were processed

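CREB ChIP and input libraries of NGP cells were sequenced, and the deposited peak list and TSS table of the ChIP library were used. Bowtie2, MACS2 and hg38 are named, per the submitters' processing notes. Read filters were not given in the sources used here, and nor were versions. The authors deposited 5285 peaks, each with its fold (a ratio over background), −log10 p-value, −log10 q-value (lowest 1.32) and a score that restates the q. The authors' table repeats the score and pairs peaks with refGene TSS, and all 4780 rows matched the list.

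Per member, the nearest peak was taken by distance from summit to TSS. Fragments were recovered from fold, as (fragments + 1) / (background + 1), and p, as a Poisson tail, within 0.001 (above a −log10 p of 100, a relative 1e-05), in 5280 of 5285 peaks and for all members, with more than 1 solution for 6 members, where the closest was kept. This step was tested on data simulated with the same formula. Such a test checks the calculation, and not that the deposited values follow the formula, which was assumed. Reads carry no molecular identifiers, so intervals cover counting error only, and total depth is unknown. Symbols were matched to RefSeq GRCh38.p14 (208 by current and 7 by older symbol).

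Named genes were all members with a summit within 1 kb, the sense pairs, the 10 highest folds beyond 1 kb (1 per peak), members with the most peaks and members of the lists. GLYCTK-AS1, LINC01220, NUCB1-AS1, LINC01869, LINC01297, genes at the table's edge and genes from RefSeq alone were chosen after their values were seen. Members and lists were chosen with earlier results of these data known. No test was run, since there are no replicates and the peaks chose the members. Python 3.11.15, pandas 2.3.3 and scipy 1.17.1 were used. Alternatives were other distance limits, a stricter q, peaks outside dense windows, wider symbols and other CRE forms.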

Additional observations from a re-analysis of the deposited data

How the results depend on the processing

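Of 22 alternatives, 15 stayed within 1.5 times the reported value. The count of 20 of 215 members with a summit within 1 kb became 38 of 215 with a limit of 5 kb. With a −log10 q of at least 5 it became 10 of the 66 members left, so the share did not fall with the count. The 6 shared sense and antisense promoter peaks became 10 within 5 kb and 2 with that q, which leaves CCDC28A-AS1 and ZNF561-AS1, and the median fold of 4.82 became 7.93 with that q. The 8 members with peaks in dense windows alone became 1 with 20 or more peaks per window, and the 11 of 17 promoter windows with a half-site became 5 for the full CRE. With RefSeq starts in place of the table's, an alternative added after the data were seen, 17 of 168 members had a summit within 1 kb. No paired analysis was possible because each group has 1 sample and no result comes from a test, and for the same reason no replicate could be left out. Most peaks rest on few fragments, which limits any ranking of members, and the table gives 1 TSS per symbol.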
